A study of Mus musculus with 6 samples.

Results

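The genes described here are 35 genes of cardiac muscle, taken as every gene probe of the array whose annotation gives 1 of the 35 symbols. They are 35 of the 32451 genes on the array, counting an accession without a symbol as a gene of its own. RNA from 6 mouse embryos at 12 days was hybridised, 1 embryo per array. Of the embryos, 2 were homozygous for the mutant Stat3 allele named STAT3-K177K180R, 2 heterozygous for it, and 2 wild type. The samples were taken here as whole embryos: the labels name embryos, while the protocol names tumor tissue. The protocol states that embryos of the 3 genotypes shared a womb. It does not say whether the 2 embryos of a genotype came from separate litters. In the mutant, by its name, 2 lysine residues are replaced by arginine. STAT3 is a transcription factor that cytokine receptors activate through Janus kinases. Signal from an array shows transcript level and not the exchanged residues, so it gives no check of the genotypes.

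Heart muscle contracts when calcium released from the sarcoplasmic reticulum binds troponin on the thin actin filament and lets the myosin of the thick filament pull on it. By mid-gestation the mouse heart beats and has separate atrial and ventricular chambers, whose muscle differs in its myosin chains, and its first pacemaker and conduction tissue. Transcription factors such as Nkx2-5, Gata4, Hand2, Mef2c and myocardin drive these genes. Many of them are not heart-only: embryonic skeletal muscle also uses Actc1, Tnnt2, Myl4, Csrp3, Tcap and Smyd1, slow skeletal fibres use Myh7, Myl2, Myl3 and Tnnc1, and Gata4, Gata6 and Hand2 are used in gut, limb or neural crest as well. In RNA from a whole embryo, fewer cells of a type and less RNA per cell cannot be told apart.

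The promoters of 4 of the genes that the homozygous comparison turns on are shown because 2 of these genes were higher and 2 lower there, and all 4 encode parts of the sarcomere. Each sequence runs from 250 bases before the annotated transcription start to 50 bases after it, from RefSeq on GRCm38.p6, and reads 5′ to 3′ in the direction of the gene. Capitals mark matches, on either strand, to the motifs searched: the CArG box bound by serum response factor, the MEF2 site, AGATAA (zinc-finger factors such as Gata4), TNAAGTG (Nkx2-5), CATTCC (the M-CAT element bound by TEAD factors), TATAAA, and TTCNNNGAA (STAT factors). Myl3 lies at chr9:110763428-110763727 on the plus strand, Actc1 at chr2:114052826-114053125 on the minus strand, Tnni3 at chr7:4522479-4522778 on the minus strand, and the first of the promoters listed for Tnnt2 at chr1:135836084-135836383 on the plus strand.
Myl3: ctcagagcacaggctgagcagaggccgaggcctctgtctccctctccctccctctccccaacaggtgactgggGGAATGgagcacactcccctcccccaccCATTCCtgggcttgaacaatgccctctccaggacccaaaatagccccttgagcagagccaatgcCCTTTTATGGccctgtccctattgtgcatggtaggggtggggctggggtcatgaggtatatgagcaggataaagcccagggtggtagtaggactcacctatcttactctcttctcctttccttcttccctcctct
Actc1: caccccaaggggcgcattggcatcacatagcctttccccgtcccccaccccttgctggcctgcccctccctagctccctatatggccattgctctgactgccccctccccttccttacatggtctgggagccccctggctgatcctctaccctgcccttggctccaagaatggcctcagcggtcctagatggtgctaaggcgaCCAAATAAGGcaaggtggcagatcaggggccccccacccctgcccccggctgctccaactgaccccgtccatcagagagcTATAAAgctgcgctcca
Tnni3: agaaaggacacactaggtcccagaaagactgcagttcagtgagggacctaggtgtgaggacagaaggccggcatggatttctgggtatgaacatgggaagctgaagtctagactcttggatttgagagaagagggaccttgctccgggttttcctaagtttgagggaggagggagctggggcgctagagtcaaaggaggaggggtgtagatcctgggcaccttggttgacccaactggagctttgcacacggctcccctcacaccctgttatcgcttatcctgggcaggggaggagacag
Tnnt2: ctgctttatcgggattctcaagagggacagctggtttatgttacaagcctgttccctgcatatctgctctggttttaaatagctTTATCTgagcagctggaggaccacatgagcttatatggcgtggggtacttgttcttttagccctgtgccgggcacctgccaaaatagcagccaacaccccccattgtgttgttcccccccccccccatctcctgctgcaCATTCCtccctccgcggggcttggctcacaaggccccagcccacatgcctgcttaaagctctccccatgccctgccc
The Myl3 window held M-CAT matches that begin at −177 and −149 bases from the start and a CArG box at −85. In Actc1 a CArG box began at −47 and TATAAA at 34 bases after the start. Tnnt2 had a GATA match at −166 and an M-CAT match at −27, and the Tnni3 window held none of the 7 motifs. Of these 4 windows, none held TTCNNNGAA.

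RefSeq promoters were matched for 29 of the 35 genes, with 37 promoters in all; the others were Sln, Gata6, Atp2a2, Gata4, Tcap and Myocd. M-CAT was found in 10 of the 37 promoters (27.0%), against 14.7% of all 32851 promoters of the same length. A CArG box was found in 3 (8.11%), against 1.63%, and a MEF2 site in 3 (8.11%), against 3.19%. AGATAA was found in 7 (18.9%), against 11.2%, and TATAAA in 9 (24.3%), against 13.6%. Shares near those of all promoters were seen for TNAAGTG, in 4 (10.8%) against 11.5%, and for the STAT motif TTCNNNGAA, in 3 (8.11%) against 8.30%. These letters describe the windows and are not sites shown to be bound.

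The level of each gene is given as the log2 of its processed signal over the array's 75th percentile, so that 0 is the level of the probe at that percentile and a difference of 1 is a 2-fold change. A gene was called in a comparison when its adjusted p in limma, fitted over all 24355 genes with a probe well above background, was below 0.05. Over all genes, 28.9% were called in homozygous against wild-type embryos, 24.4% in homozygous against heterozygous embryos, and 0% in heterozygous against wild-type embryos. Both homozygous arrays lay on a slide of their own and the other 4 arrays shared a slide, so genotype and slide cannot be told apart in either comparison with homozygous embryos. On the homozygous arrays, 70.7% to 73.4% of probes were well above background and the 75th percentile lay at a signal of 785 to 860, against 75% to 77.3% and 1037 to 1263 on the heterozygous and wild-type arrays. The median signal of negative controls was 43.5 and 48 on the homozygous arrays, against 26 to 27 on the other 4 arrays. No source says whether embryos of a genotype were from separate litters, so p-values rest on the spread between these embryos. In limma that spread is pooled over the 3 genotypes and drawn toward that of all genes. Both embryos of a genotype shared a slide, so it holds no variation between slides. The 2 arrays per genotype also limit the precision.

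All 35 genes had a probe, and 34 were tested. Hcn4, the pacemaker channel of the sinus node, was not well above background on any of the 6 arrays. Myocd and Cacna1c were well above background in the heterozygous and wild-type embryos and on neither homozygous array. Their homozygous levels were thus read near background, and their differences changed with the background correction. The ventricular myosin genes (Myh7, Myl2, Myl3), and Myh6, Myl7 and Nppa, were well above background in every embryo.

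**Figure D1:**
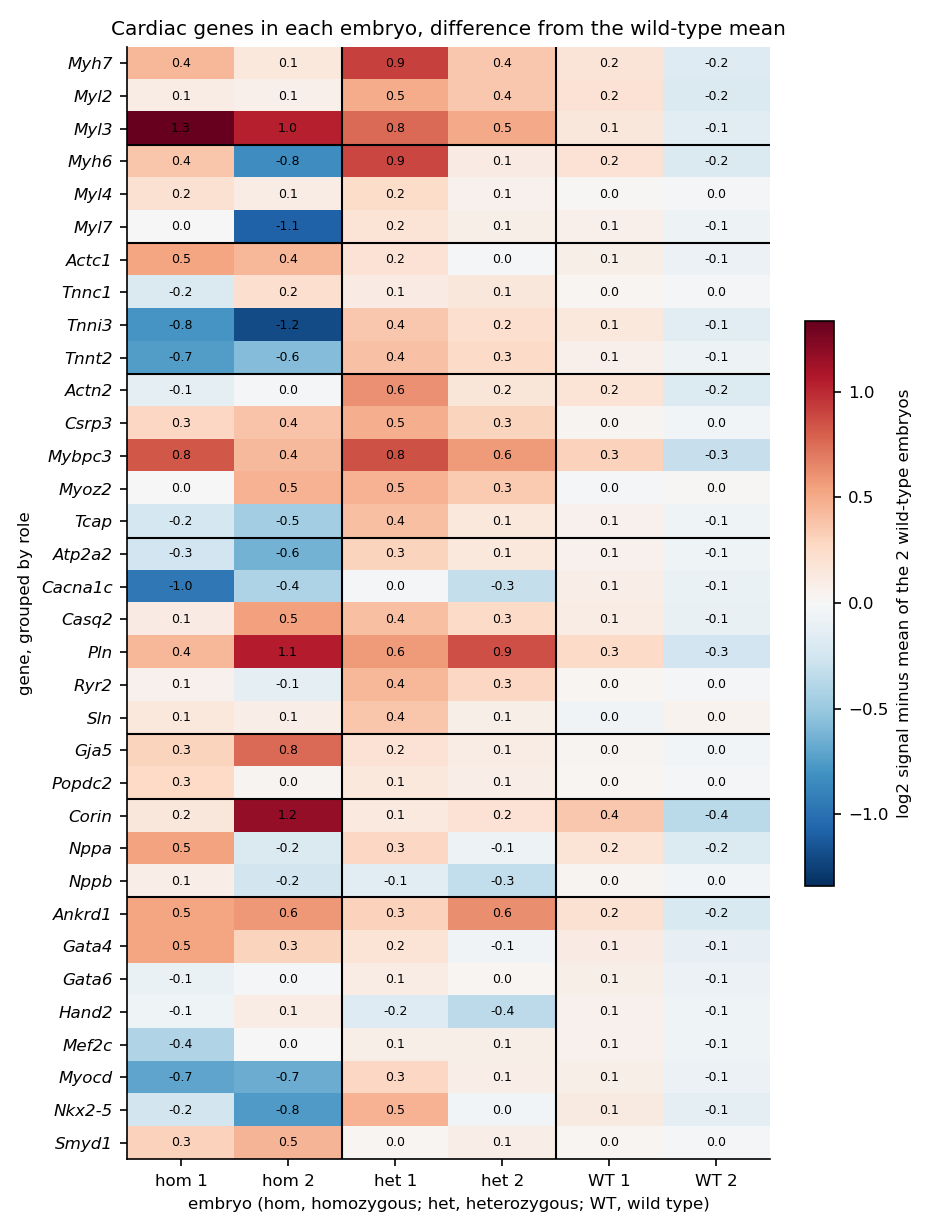
Log2 level of each of the 34 tested genes (rows, grouped by role) in each of the 6 embryos (columns), as the difference from the mean of the 2 wild-type embryos; red is higher and blue lower. Heterozygous columns are mostly red, while the homozygous columns mix red (Myl3, Mybpc3, Pln) and blue (Tnni3, Tnnt2, Myocd), and Myh6 and Myl7 are deep blue in homozygous embryo 2 alone.

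In homozygous embryos, against wild type, the genes moved in both directions: 2 of the 34 were called higher (Myl3 and Actc1) and 3 lower (Tnni3, Tnnt2 and Myocd), and 29 were not called. Myocd entered the test only through the heterozygous and wild-type embryos, where it was well above background. Among the 32 genes well above background on all 6 arrays, 2 were called higher and 2 lower, where 30.7% of all such genes were called. The 5 called genes are 14.7% of the 34, against 28.9% of all genes, so the share of calls lay below that of all genes tested. The median difference over the 34 genes was 0.10, against 0.09 over all genes, and 20 differences lay above 0 and 14 below. Arrays of both genotypes did not overlap for 13 higher genes and 7 lower ones, or 20 of 34, where 69.6% of all genes did not overlap (40.2% higher and 29.4% lower). An unadjusted p below 0.05 was found in limma for 14 of the 34, against 43.4% of all genes.

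Myl3, the ventricular essential light chain of myosin, gave the highest difference. Its level was 2.48 and 2.18 in homozygous embryos, 1.90 and 1.64 in heterozygous embryos, and 1.29 and 0.99 in wild-type embryos. The 3 genotypes did not overlap, and the heterozygous embryos lay between the others. Myl3 was 2.27-fold higher in homozygous than in wild-type embryos (log2 difference 1.19 ± 0.18 SE, limma adjusted p = 0.00703). Without wild-type embryo 2 the difference was 1.04 and the limma adjusted p was 0.0600. The other ventricular myosin genes did not pass: Myh7, the slow beta heavy chain, differed by 0.29 (adjusted p = 0.371) and Myl2, the ventricular regulatory light chain, by 0.08 (adjusted p = 0.733).

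Actc1 encodes cardiac alpha actin, the thin filament itself. It stood at 5.63 and 5.54 in homozygous embryos, 5.29 and 5.07 in heterozygous embryos, and 5.18 and 5.02 in wild-type embryos. Both homozygous values were above all others. The gene was 1.40-fold higher in homozygous embryos (0.49 ± 0.14, limma adjusted p = 0.047), a call close to the threshold that was made in 5 of 15 alternative settings, among which its difference ranged over 0.39 to 0.57 and its adjusted p over 0.0117 to 0.258.

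Tnni3 and Tnnt2 encode the inhibitory and the tropomyosin-binding subunits of cardiac troponin. Tnni3 had levels of −1.84 and −2.25 in homozygous embryos, −0.69 and −0.83 in heterozygous embryos, and −0.91 and −1.19 in wild-type embryos. Tnnt2 had levels of 0.57 and 0.74 in homozygous embryos, 1.70 and 1.57 in heterozygous embryos, and 1.38 and 1.25 in wild-type embryos. For both genes the homozygous embryos were lowest, the heterozygous ones highest, and no genotypes overlapped. Against wild type, Tnni3 was 1.99-fold lower in homozygous embryos (−0.99 ± 0.19, limma adjusted p = 0.0127) and Tnnt2 1.58-fold lower (−0.66 ± 0.14, limma adjusted p = 0.017). Without wild-type embryo 1 the limma adjusted p was 0.0889 for Tnni3 (difference −0.85) and 0.126 for Tnnt2 (−0.59), and without wild-type embryo 2 it was 0.0532 (−1.13) and 0.0902 (−0.72). The calcium-binding subunit Tnnc1 differed by 0.02 (adjusted p = 0.95). Actin and the called troponin genes thus moved in opposite directions.

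Myocd encodes myocardin, the cofactor through which serum response factor drives heart and smooth muscle genes. Its level was −6.24 and −6.19 in homozygous embryos, where it was not well above background, −5.25 and −5.44 in heterozygous embryos, and −5.45 and −5.61 in wild-type embryos. Both homozygous values were below the other 4. Set against the lowest signals well above background on the homozygous arrays, Myocd was 1.40-fold lower in homozygous than in wild-type embryos (fitted difference −0.68, limma adjusted p = 0.0155). That fold is not a minimum under other background corrections. With the normexp background correction the call of this dim probe was lost: the difference was 0.24 with 75th percentile scaling (limma adjusted p = 0.125) and −0.10 with quantile normalization (limma adjusted p = 0.332). The call was also lost without wild-type embryo 1 (−0.60, adjusted p = 0.119) or embryo 2 (−0.76, adjusted p = 0.0803).

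Among the other regulators, none was called. Smyd1, a muscle-specific methyltransferase, differed by 0.38 (limma adjusted p = 0.0636), and Ankrd1, a stretch-responsive nuclear and sarcomeric protein, by 0.55 (adjusted p = 0.0697). The other 5 (Gata4, Gata6, Hand2, Mef2c and Nkx2-5) had differences from −0.50 to 0.41. Of the 5 thick filament and Z disc genes, Mybpc3, the myosin-binding protein C of heart, differed by 0.63 (adjusted p = 0.107) and Csrp3, a LIM protein of the Z disc, by 0.33 (adjusted p = 0.108). Actn2, Myoz2 and Tcap lay between −0.35 and 0.23.

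No calcium handling gene was called in the main fit either. Cacna1c, the pore subunit of the L-type calcium channel, differed by −0.69 (limma adjusted p = 0.0601). Its probe was not well above background on either homozygous array, and against the lowest signals well above background there the fold was 1.35. With the normexp correction its difference was 0.16 under 75th percentile scaling and −0.19 under quantile normalization. Without that correction, it was called lower with quantile normalization and with the authors' deposited log2 table. Pln, phospholamban, the inhibitor of the reticulum calcium pump, differed by 0.75 (adjusted p = 0.079), while Atp2a2, the pump itself, differed by −0.45 on its brighter probe (adjusted p = 0.0918). Ryr2, Casq2 and Sln lay between −0.04 and 0.33. Of the conduction genes, Gja5, the connexin of fast-conducting cells, differed by 0.53 (adjusted p = 0.0674) and Popdc2, a cyclic AMP-binding membrane protein, by 0.15 (adjusted p = 0.417). With the normexp correction under either scaling, Pln and Gja5 were called higher and Atp2a2 lower.

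**Figure D2:**
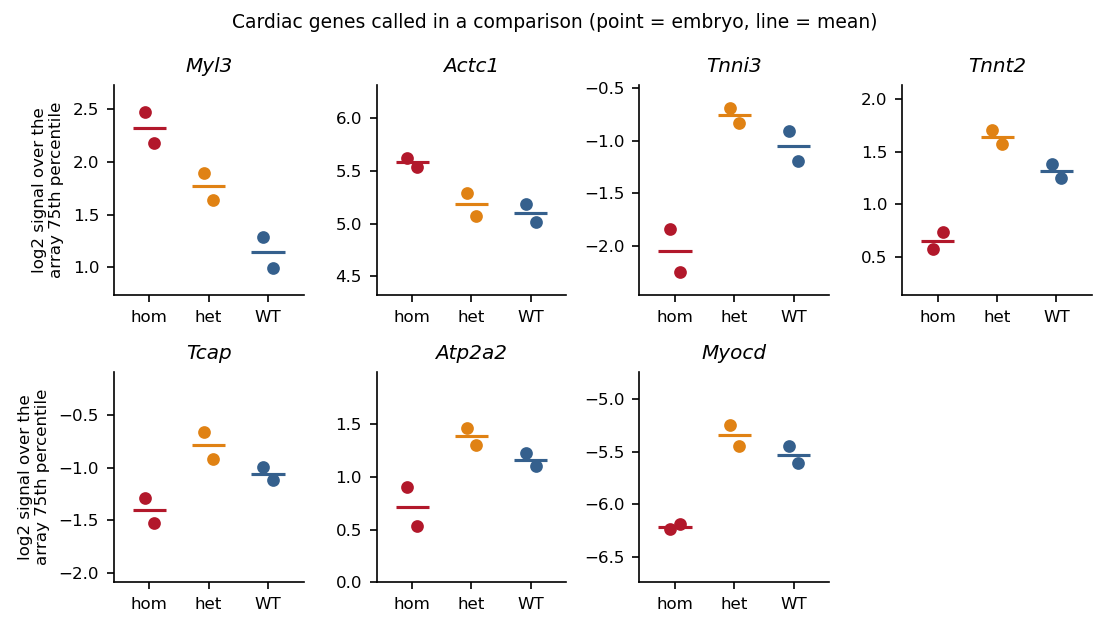
Level of the 7 genes called in a comparison (log2 signal over the array's 75th percentile) in homozygous, heterozygous and wild-type embryos, with 1 point per embryo and a line at the mean of 2. Myl3 and Actc1 are highest in homozygous embryos, and Tnni3, Tnnt2, Tcap, Atp2a2 and Myocd are lowest there.

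The calls in homozygous against wild-type embryos changed when 1 embryo was left out. More of the 34 genes were called without homozygous embryo 1, and fewer without any 1 heterozygous or wild-type embryo, as over all genes. The median difference over the 34 genes was 0.07 and 0.10 without homozygous embryos 1 and 2, against 0.07 and 0.09 over all genes. Without wild-type embryos 1 and 2 it was 0.14 and −0.01, against 0.09 and 0.09 over all genes.

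Between heterozygous and wild-type embryos, most differences had the same sign. Of the 34 genes, 31 had a higher mean in heterozygous embryos, and 3 a lower one (Cacna1c −0.16, Nppb −0.24 and Hand2 −0.26). None was called by limma with adjustment over all genes, among which 0% were called, and 8 had an unadjusted p below 0.05, where 534 genes of 24355 (2.19%) did. The median difference was 0.22 over the 34 genes, against −0.01 over all genes, of which 53.8% lay below 0. Both heterozygous embryos lay above both wild-type embryos for 23 genes and below for 2, a pattern seen in 12.9% (above) and 14.6% (below) of all genes. All 4 arrays of this comparison shared a slide.

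The ventricular myosin chains had the highest median of the 8 roles in this comparison, 0.63 over 3 genes. Myh7 was at 2.84 and 2.29 in heterozygous embryos, against 2.10 and 1.76 in wild-type embryos. Its groups did not overlap, with a difference of 0.64 ± 0.23 (unadjusted p = 0.0324, limma adjusted p = 1.00). Myl3 differed by 0.63 ± 0.18 (unadjusted p = 0.0124) and Myl2 by 0.43 ± 0.16 (unadjusted p = 0.0384), each with the same limma adjusted p of 1.00. The thick filament and Z disc genes had a median of 0.39 over 5 genes, all above 0, with Mybpc3 at 0.71 ± 0.25 (unadjusted p = 0.0299) and Csrp3 at 0.39 ± 0.13 (unadjusted p = 0.024) in the limma fit. Calcium handling genes had a median of 0.27 over 6, with Pln at 0.72 ± 0.26 (unadjusted p = 0.0342) and the release channel Ryr2 at 0.36 ± 0.14 (unadjusted p = 0.0375) in the limma fit.

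Actin and the troponins had a median of 0.21 over 4 genes, all above 0, and the atrial and embryonic myosin chains 0.15 over 3, also all above 0. Smaller medians were found for the conduction genes (0.13 over 2), the natriuretic peptides with the protease Corin that processes them (0.10 over 3) and the regulators (0.07 over 8). Ankrd1 was the regulator with the smallest unadjusted p in limma, 0.0458, at a difference of 0.46 ± 0.19. None of these 8 genes with an unadjusted p below 0.05 passed adjustment. The count of genes above 0 was 27 without heterozygous embryo 1 or without wild-type embryo 2, and 31 without any other single embryo.

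**Figure D3:**
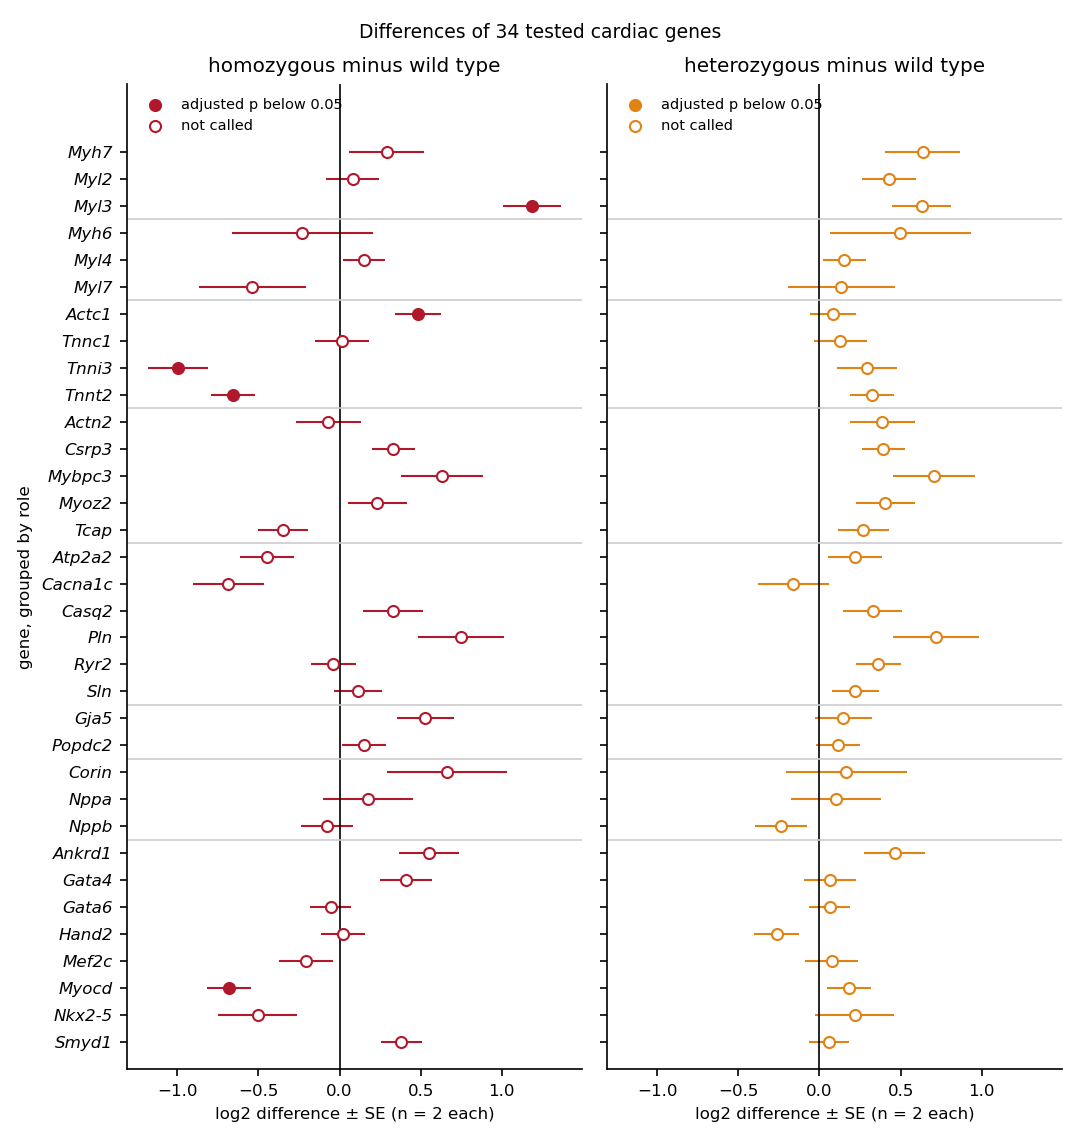
Log2 difference ± SE of each of the 34 tested genes, grouped by role, in homozygous minus wild-type embryos (left) and heterozygous minus wild-type embryos (right), n = 2 embryos each; filled points have a limma adjusted p below 0.05. On the left 2 filled points are higher and 3 lower, and on the right no point is filled and 31 of 34 lie above 0.

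Taken embryo by embryo, heterozygous embryo 1 exceeded both wild-type embryos for 30 of the 34 genes (88.2%, against 37.8% of all genes) and heterozygous embryo 2 for 23 (67.6%, against 30.6%). Homozygous embryos 1 and 2 exceeded both wild-type embryos for 18 (52.9%) and 17 (50%), against 51.8% and 50.3% of all genes. The median gap from the wild-type mean over the 34 genes was 0.10 and 0.07 in homozygous embryos, 0.30 and 0.12 in heterozygous embryos, and 0.08 and −0.08 in wild-type embryos. Embryo 1 thus had the higher median in each pair, with the wider gaps in the heterozygous and wild-type pairs. Heterozygous embryo 1 was above heterozygous embryo 2 for 28 of the 34 genes, against 58.9% of all genes, and wild-type embryo 1 was above wild-type embryo 2 for 32, against 51.2%. In both pairs most cardiac genes were thus higher in the same embryo, with a median absolute gap of 0.18 between heterozygous embryos and 0.16 between wild-type embryos. Between homozygous embryos the count was 18, against 56.2% of all genes.

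**Figure D4:**
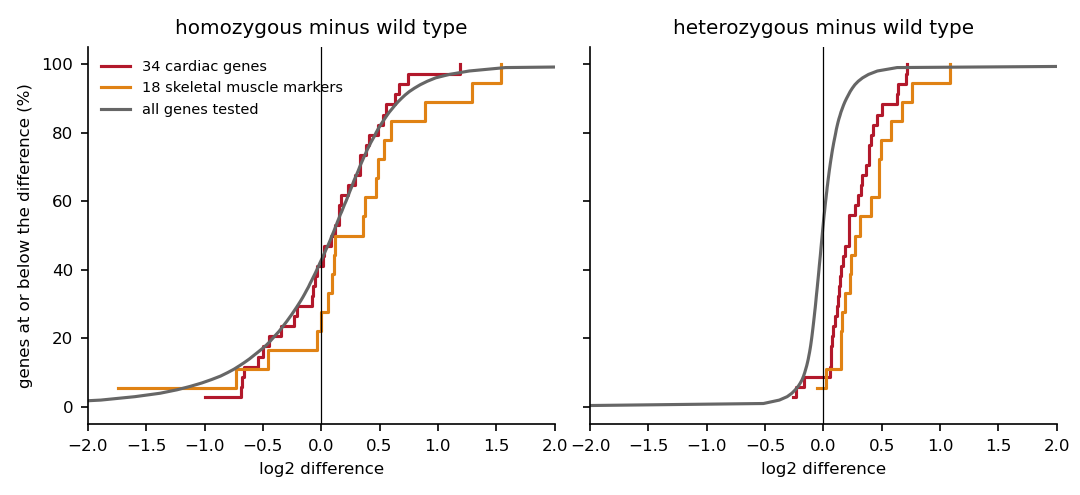
Percentage of genes (y) at or below each log2 difference (x), for the 34 cardiac genes (red), 18 skeletal muscle markers (orange) and all genes tested (grey, with the most extreme genes beyond the axis). In homozygous minus wild-type embryos (left) the red line follows the grey one, and in heterozygous minus wild-type embryos (right) the red and orange lines lie to its right.

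Homozygous embryos, set against heterozygous ones, gave 0 genes called higher and 5 lower: Tnni3, Tnnt2, Myocd, Tcap and Atp2a2. This split was 4 higher and 5 lower with normexp and 75th percentile scaling, and 2 higher and 5 lower with an intensity trend in limma. Myocd entered this test only through the heterozygous and wild-type embryos. Among the 32 genes well above background on all 6 arrays, 0 were called higher and 4 lower, where 26.7% of all such genes were called. The 5 genes called in the main fit are 14.7% of the 34, against 24.4% of all genes called in either direction and 12.5% called lower. Differences were below 0 for 21 genes and above 0 for 13, with a median of −0.11, against 0.10 over all genes. Both homozygous embryos lay below both heterozygous ones for 13 genes and above for 6, or 19 of 34, where 64.8% of all genes did not overlap (27% lower and 37.8% higher). An unadjusted p below 0.05 was found in limma for 10 of the 34, against 40.9% of all genes. This comparison and the one against wild type share the homozygous embryos, so they are not independent of each other.

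Tnni3, with the levels given above, was 2.44-fold lower in homozygous than in heterozygous embryos (−1.29 ± 0.19, limma adjusted p = 0.0071), and Tnnt2 1.98-fold lower (−0.98 ± 0.14, limma adjusted p = 0.00626). Myocd was 1.59-fold lower against the lowest signals well above background on the homozygous arrays (fitted difference −0.87, limma adjusted p = 0.00914). That fold is not a minimum. With the normexp correction the Myocd difference was 0.33 under 75th percentile scaling (limma adjusted p = 0.0396) and −0.15 under quantile normalization (limma adjusted p = 0.176). Tcap encodes telethonin, which caps titin at the Z disc. It was at −1.29 and −1.52 in homozygous embryos, −0.66 and −0.91 in heterozygous embryos, and −0.99 and −1.12 in wild-type embryos. The homozygous values were lowest and the heterozygous ones highest, with no overlap. Tcap was 1.54-fold lower in homozygous than in heterozygous embryos (−0.62 ± 0.16, limma adjusted p = 0.0355), and against wild type its difference was −0.35 (adjusted p = 0.138).

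Atp2a2 encodes SERCA2, the pump that returns calcium to the reticulum, and it is used outside the heart as well. On its brighter probe it was at 0.91 and 0.53 in homozygous embryos, 1.47 and 1.30 in heterozygous embryos, and 1.23 and 1.1 in wild-type embryos. The homozygous values were below the other 4. By this probe it was 1.59-fold lower in homozygous than in heterozygous embryos (−0.67 ± 0.17, limma adjusted p = 0.0351). Its second probe gave the opposite sign.

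Of the genes not called, Myl3 differed by 0.56 (limma adjusted p = 0.0697), Nkx2-5, the homeobox regulator of early heart fate, by −0.72 (adjusted p = 0.0759), Ryr2 by −0.40 (adjusted p = 0.0802) and Actc1 by 0.40 (adjusted p = 0.085). No call was made in this comparison without heterozygous embryo 1, where 6.39% of all genes were called. Fewer of the 34 genes were also called without heterozygous embryo 2 or either wild-type embryo, and more without homozygous embryo 1, as over all genes. The median difference over the 34 genes was −0.08 and −0.14 without homozygous embryos 1 and 2, against 0.08 and 0.10 over all genes. Without heterozygous embryos 1 and 2 it was −0.08 and −0.19, against 0.11 and 0.08 over all genes. The limma adjusted p without heterozygous embryo 1 was 0.0551 for Tnni3 (−1.22), 0.0512 for Tnnt2 (−0.92), 0.0652 for Myocd (−0.77), 0.164 for Atp2a2 (−0.58) and 0.170 for Tcap (−0.49).

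Between the homozygous embryos the largest gaps were those of Myh6, Myl7, Corin and Nppa. They are atrial and embryonic myosin genes and genes of natriuretic peptide production, and none was called in any comparison. These genes were chosen after their values were seen. Myh6, the alpha heavy chain, was at 1.38 and 0.19 in homozygous embryos, 1.91 and 1.12 in heterozygous embryos, and 1.21 and 0.83 in wild-type embryos. Homozygous embryo 2 was lowest and heterozygous embryo 1 highest, so the genotypes overlapped, and the gap of 1.19 between homozygous embryos was exceeded by 2.28% of all genes. Myl7, the atrial regulatory light chain, was at −3.25 and −4.33 in homozygous embryos, −3.07 and −3.17 in heterozygous embryos, and −3.19 and −3.32 in wild-type embryos, so that homozygous embryo 2 alone stood apart. Without homozygous embryo 2, the difference from wild type was 0.37 for Myh6 and 0.00194 for Myl7, and without homozygous embryo 1 it was −0.83 and −1.08.

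Myl4, the light chain of embryonic and atrial muscle, showed no such gap. Its levels were 4.50 and 4.40 in homozygous embryos, 4.54 and 4.36 in heterozygous embryos, and 4.31 and 4.28 in wild-type embryos. Nppa, atrial natriuretic peptide, was at 1.62 and 0.89 in homozygous embryos, 1.36 and 1.01 in heterozygous embryos, and 1.27 and 0.90 in wild-type embryos. In every genotype embryo 1 was higher than embryo 2, and the genotypes overlapped. The array holds 10 spots for Nppa, whose log2 signals had an SD of 0.0204 to 0.0534 within an array, a spread that leaves out differences between labellings and arrays. The gap in Nppa between homozygous embryos was 0.73. Corin was at −3.94 and −2.93 in homozygous embryos, −3.97 and −3.90 in heterozygous embryos, and −3.74 and −4.46 in wild-type embryos, with homozygous embryo 2 highest. Nppb, the other natriuretic peptide, ranged only over −4.21 to −3.80 in all 6 embryos.

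The median gap between embryos of a genotype was 0.30 for the 34 genes and 0.25 for all genes in homozygous embryos, 0.18 and 0.17 in heterozygous embryos, and 0.16 and 0.11 in wild-type embryos.

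Probes of a gene did not always give the same order of genotypes. Myh6, Atp2a2, Gja5 and Smyd1 have 2 probes each. The dimmer probe of Atp2a2 was at −0.95 and −0.37 in homozygous embryos, −1.55 and −1.21 in heterozygous embryos, and −1.27 and −1.49 in wild-type embryos. Its homozygous values were above the other 4, against the order of the brighter probe. In the limma fit over probes, where 27.7% of probes were called in homozygous against wild-type embryos and 23% against heterozygous ones, it differed by 0.72 in each comparison (adjusted p = 0.0628 against wild type and 0.0699 against heterozygous). Which transcripts of Atp2a2 each probe reads was not tested.

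The second probe of Gja5 was at −5.52 and −6.01 in homozygous embryos, −4.68 and −5.29 in heterozygous embryos, and −5.64 and −5.56 in wild-type embryos. Homozygous and wild-type embryos overlapped on it, with a difference of −0.17 (limma adjusted p over probes = 0.636), where the brighter probe gave 0.53. For Myh6 the dimmer probe was not well above background in either homozygous embryo, which leaves no measured level there. It was not called against wild type (limma adjusted p over probes = 0.103). The dimmer Smyd1 probe was left out because it was not well above background on both arrays of any genotype.

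**Figure D5:**
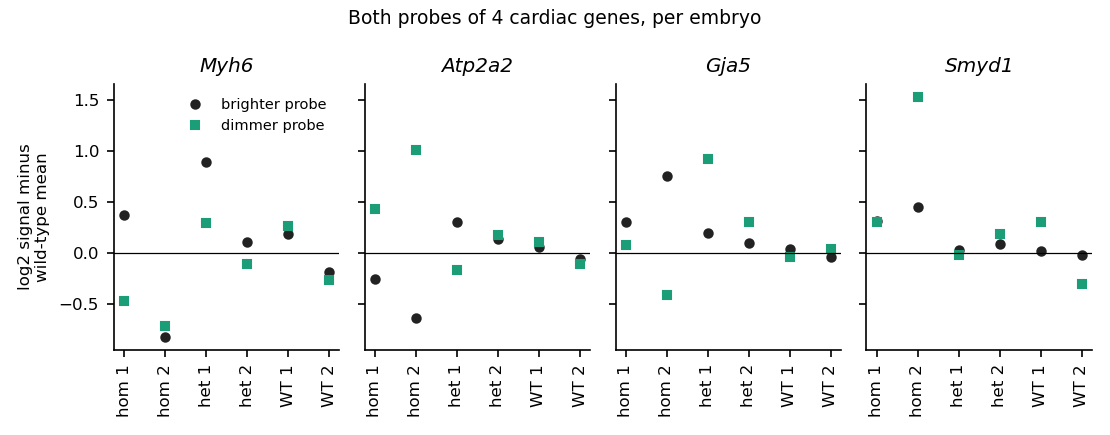
Both probes of Myh6, Atp2a2, Gja5 and Smyd1 in each embryo, as log2 signal minus the probe's own wild-type mean, with circles for the brighter and squares for the dimmer probe. In homozygous embryos the Atp2a2 circles lie below 0 and its squares above 0.

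A further 50 cardiac genes outside the 35 were followed, of which 47 were tested. Between homozygous and wild-type embryos 5 were called higher and 6 lower (23.4%), again below the 28.9% of all genes, with a median of 0.02. Trdn, triadin, which anchors the calcium release complex, had the smallest p: it was at −5.11 and −5.24 in homozygous embryos, −2.24 and −2.53 in heterozygous embryos, and −2.62 and −2.57 in wild-type embryos. The homozygous values lay far below the other 4 (−2.59 ± 0.15, limma adjusted p = 0.000603), while a second, dimmer Trdn probe, not well above background in homozygous embryos, gave 0.26 (limma adjusted p over probes = 0.332). Tnni3k, a kinase that binds troponin I, was higher by 1.08 (limma adjusted p = 0.00301). Tbx2, a repressor of chamber genes in the atrioventricular canal, fell by 1.41 (limma adjusted p = 0.0125).

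In heterozygous embryos, against wild type, 35 of these 47 genes had a difference above 0 and 12 below, with a median of 0.15 and none called by limma. Both heterozygous embryos lay above both wild-type embryos for 22 of the 47 and below for 2, a pattern seen in 12.9% (above) and 14.6% (below) of all genes.

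Markers of skeletal muscle, which shares many of the 35 genes, lay above wild type along with the cardiac genes in heterozygous embryos. Of 18 markers, 17 had a difference above 0 against wild type and 13 did not overlap, all of them higher, where 12.9% of all genes did not overlap and were higher. Their median difference was 0.29, none was called by limma, and 5 had an unadjusted p below 0.05. Per embryo their median gap from the wild-type mean was 0.43 in heterozygous embryo 1 and 0.18 in heterozygous embryo 2, and their summed signal, in units of the array's 75th percentile, was 90 and 75.2 in heterozygous embryos, against 67.4 and 67.2 in wild-type embryos. In homozygous embryos, against wild type, 5 of the 18 were called higher and 1 lower (33.3%, against 28.9% of all genes). Among them Mylpf, the fast skeletal regulatory light chain, was higher by 1.54 (limma adjusted p = 0.00551). Its dim probe, at −6.97 and −6.43 in wild-type embryos, cleared background in only 1 of the 2. Myf6, a factor of muscle differentiation, was higher by 1.29 (limma adjusted p = 0.0118) and Ckm, muscle creatine kinase, by 0.89 (limma adjusted p = 0.016). Myf5, a factor of early muscle precursors that cleared background in 1 of the 2 homozygous embryos, fell by 1.74 (limma adjusted p = 0.0238). The part of skeletal muscle in the values of the shared genes was not tested.

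Of the 7 tested smooth muscle markers, 3 were called higher in homozygous embryos against wild type, where 14.7% of all genes were called higher, with a median of 0.56, and the median in heterozygous embryos was 0.13. None of 8 endothelial and endocardial markers and none of 7 epicardial markers was called by limma in any comparison. Over all genes 28.9% were called in homozygous against wild-type embryos, 24.4% against heterozygous ones, and 0% in heterozygous against wild-type embryos. The endothelial and the epicardial medians against wild type were −0.04 and 0.19 in homozygous embryos and 0.04 and −0.05 in heterozygous embryos. Outside the heart, 4 of 8 hepatocyte markers were called higher in homozygous embryos, again where 14.7% of all genes were, with a median of 0.68. The 7 erythroid markers had a median of 0.23 in homozygous embryos against wild type. In heterozygous embryos the markers of liver and red cells differed by embryo: the median gap from the wild-type mean was −0.62 in heterozygous embryo 1 and 0.16 in heterozygous embryo 2 for erythroid markers, and −0.16 and 0.24 for hepatocyte markers. Heterozygous embryo 1 was thus the embryo with the higher cardiac and skeletal values and the lower erythroid and hepatocyte values. The part of embryo composition in the cardiac differences was not tested.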

How the data were processed

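Total RNA of 6 embryos was labelled with Cy3 and hybridised to 1-colour Agilent mouse 4x44K arrays, per the labels' protocols; the same protocol names tumor tissue as the RNA source, against the labelled embryos. Spot intensity was extracted with Agilent Feature Extraction 11.0.1.1, per the submitters' processing notes, and background-subtracted and detrended within each array, per the file headers. The deposited flags mark spots well above background, saturated or outlying. The authors' deposited log2 table, normalized between arrays by a method not given in the sources used here, had the same median of 6.73 in every column and served as an alternative.

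Here, log2 processed intensity minus each array's 75th percentile was used, after control spots (1377 of 44397) and spots flagged as outliers were removed and spots of a probe averaged. A probe was tested if some genotype had it well above background on each of its 2 arrays (29906 of 39429 probes; 69.1% of probes have a symbol), and the brightest such probe by mean level stood for its gene. Genotypes were compared with limma 3.58.1 in R 4.3.3 (lmFit, eBayes) over all 6 arrays, with Benjamini-Hochberg adjustment over 24355 genes; a fit over all tested probes served the genes with a second probe. Where a probe was not well above background on either array of a genotype, a second fold was computed. For it, lower values were raised to the lowest signal well above background on each of those arrays. This fold is not a minimum under other background corrections. The code of the fit was run on simulated data with independent noise, which does not address the overlap of slide and genotype. Slides were read from the file headers. Array annotation is to mm9, per the file headers; promoters are RefSeq on GRCm38.p6 and were used by symbol.

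The cardiac genes, the marker lists and the tests were chosen with earlier results of these data known. Full values are given for genes called in a comparison or differing by at least 1 on the log2 scale; of the others, at most 2 per role with the smallest unadjusted p, and of each marker list at most 4, except where stated. A gene that this rule names among the further cardiac genes is not reported here. Alternatives were quantile normalization, normexp background correction (offset 50, on the median spot intensity) with either scaling, the authors' table, no filter or a filter on all 6 arrays, the second brightest probe, an intensity trend in eBayes, a replicate block, fits of only 2 genotypes, and leaving out each embryo. The counts of genes above 0 were added as a result after the data were seen.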

Additional observations from a re-analysis of the deposited data

How the results depend on the processing

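Over the alternatives run, Myl3 was called higher in homozygous than in wild-type embryos in 14 of 15, and Tnni3 and Tnnt2 lower in 13 of 15 each; Actc1 was called in 5 of 15 and Myocd in 10 of 14. Against heterozygous embryos Tnni3 and Tnnt2 were called in 14 of 15, Myocd lower in 11 of 14 and higher in 1 (normexp with 75th percentile scaling), and Tcap and Atp2a2 lower in 8 each. These tallies count some fits repeatedly. Leaving out either embryo of the genotype not compared gave the same result as fitting only the 2 genotypes compared. Quantile normalization and the authors' table also called the same cardiac genes as each other. In homozygous against wild-type embryos both called Cacna1c lower and did not call Actc1, unlike the main fit. Of the 34 cardiac genes, 5 were called in homozygous against wild-type embryos; the number was 9 with normexp and 75th percentile scaling and 8 with normexp and quantile normalization, 0 of 3 with the second brightest probe, and 0 to 12 with an embryo left out. Against heterozygous embryos it was 5, with 9 under normexp and 75th percentile scaling (4 of them higher), 3 with no filter, 0 of 3 with the second brightest probe, 3 with only the 2 genotypes fitted, and 0 to 11 with an embryo left out. In heterozygous against wild-type embryos the number was 0 in every alternative run. With the second brightest probe, the genes above 0 were 1 of 3 (homozygous minus wild type), 3 of 3 (heterozygous minus wild type) and 1 of 3 (homozygous minus heterozygous). Normexp with 75th percentile scaling moved the median of all genes from 0.09 to 0.20 in homozygous against wild-type embryos and from 0.10 to 0.25 against heterozygous ones; genes called were 9078 and 11656, against 7030 and 5937. The cause of these changes was not tested.

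Signs turned as follows. Homozygous minus wild type: with normexp and 75th percentile scaling, Actn2 0.037, Ryr2 0.074, Cacna1c 0.16, Nppb 0.14 and Myocd 0.24; with normexp and quantile normalization, Actn2 0.018; with the second probe, Atp2a2 0.72 and Gja5 −0.17. Heterozygous minus wild type: with normexp and 75th percentile scaling, Corin −0.018 and Myocd −0.10. Homozygous minus heterozygous: with quantile normalization and with the authors' table, Myl4 0.0150; with normexp and 75th percentile scaling, Casq2 −0.059, Cacna1c 0.34 and Myocd 0.33; with normexp and quantile normalization, Casq2 −0.062; with the second probe, Atp2a2 0.72 and Gja5 −0.78.

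Leaving out 1 embryo gave both signs for genes not called. In homozygous minus wild type the ranges were Myl2 −0.11 to 0.27, Myh6 −0.83 to 0.37, Myl7 −1.08 to 0.00194, Tnnc1 −0.19 to 0.22, Actn2 −0.25 to 0.11, Myoz2 −0.00278 to 0.47, Ryr2 −0.13 to 0.059, Nppa −0.19 to 0.54, Nppb −0.25 to 0.090, Gata6 −0.13 to 0.022 and Hand2 −0.057 to 0.10. In heterozygous minus wild type they were Actc1 −0.027 to 0.19, Nppa −0.084 to 0.29, Corin −0.19 to 0.52, Nkx2-5 −0.032 to 0.46, Gata4 −0.051 to 0.18 and Gata6 −0.015 to 0.14. In homozygous minus heterozygous they were Myl4 −0.095 to 0.092, Tnnc1 −0.32 to 0.092, Mybpc3 −0.28 to 0.13, Csrp3 −0.15 to 0.030, Myoz2 −0.41 to 0.063, Casq2 −0.22 to 0.22, Pln −0.27 to 0.34, Sln −0.25 to 0.041, Popdc2 −0.075 to 0.15, Nppa −0.30 to 0.44, Nppb −0.00930 to 0.33, Corin −0.00949 to 1.00 and Ankrd1 −0.071 to 0.25.

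A fit with the replicate number as a block called 7 cardiac genes against wild type, 7 against heterozygous embryos and 0 in heterozygous against wild-type embryos. Same-numbered embryos did not deviate together in every pair of genotypes (correlations over genes of 0.24, −0.14 and 0.01), so the number was not taken as a pairing. Slide as a random block was not run, because genotype already determines slide. Signal over background limits Myocd, Cacna1c and Hcn4.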
